A study of Mus musculus with 8 samples.

Results

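The genes examined were 10 members of the insulin-like growth factor (IGF) and insulin signalling axis, taken by symbol from a table of 53700 mouse genes. They were the IGF binding protein genes Igfbp2, Igfbp3, Igfbp4, Igfbp5, Igfbp6 and Igfbp7, the receptor genes Igf1r and Insr, and the insulin receptor substrate genes Irs1 and Irs2. Reads were found for 7 of the 10 members, and these 7 were tested. Igfbp2, Igfbp3 and Igfbp5 had 0 reads in every library.

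IGF binding proteins are secreted proteins that hold IGFs outside the cell, which can keep the ligand from its receptor or prolong its life. The IGF and insulin receptors are tyrosine kinases at the cell surface. Once bound by ligand they phosphorylate the docking proteins encoded by Irs1 and Irs2, which recruit phosphatidylinositol 3-kinase (PI3K) and so activate AKT and mTOR, a pathway that drives growth and nutrient uptake in many carcinomas.

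RNA was sequenced from Lewis lung carcinoma (LLC) cells, a mouse lung tumour line, that were either WT or lacked factor inhibiting HIF (FIH-KO). FIH, encoded by Hif1an, is an oxygen-dependent hydroxylase that restrains the transcriptional activity of hypoxia-inducible factors (HIF). Each genotype was cultured for 16 hours under normoxia (21% O2) or hypoxia (1% O2) without further treatment. The sample labels do not give the time of culture. A pair of stranded mRNA libraries was made per genotype and oxygen level, 8 in all. The FIH-KO cells were made with CRISPR/Cas9 and grown out from single-cell dilutions, so traits of a clone and the deletion cannot be told apart. The labels do not say that libraries of a group came from separate cultures, so p-values measure only the spread between these samples, which may be technical. Total counts ran from 14519731 to 18177016 per library. In bulk samples such as these, fewer cells of a type and less RNA per cell cannot be told apart.

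The labels were checked with Hif1an and with known targets of hypoxia. Hif1an stood at 84.6 and 82.3 CPM (reads of a gene scaled to a common library size) in WT normoxia, 90.2 and 84 in WT hypoxia, 34.8 and 37.7 in FIH-KO normoxia and 45.5 and 51 in FIH-KO hypoxia. Every FIH-KO library was below every WT library, and reads remained in the edited cells. Its log2 fold change in FIH-KO was -1.20 under normoxia and -0.85 under hypoxia (edgeR quasi-likelihood test, adjusted p = 3.1e-05 and 0.00031). Vegfa, Bnip3, Egln3, Slc2a1 and Pdk1 rose under hypoxia in both genotypes, by log2 fold changes of 1.40 (Egln3) to 3.08 (Vegfa) in WT and 1.84 (Egln3) to 3.66 (Bnip3) in FIH-KO. For genotype, Vegfa was higher in FIH-KO under normoxia (1.20, edgeR adjusted p = 0.0003) and differed by 0.09 under hypoxia. Under hypoxia Egln3 (0.85, edgeR adjusted p = 0.0039) and Pdk1 (0.64, adjusted p = 0.025) were higher in FIH-KO. The Pdk1 call was lost without either WT hypoxia library or the first FIH-KO hypoxia library. Under normoxia these genes differed by 0.40 and -0.54 and did not pass. Bnip3 and Slc2a1 passed for genotype in neither condition. Car9, a HIF target, rose in WT from 2 and 2 reads to 49 and 27, while FIH-KO libraries had 5 and 4 reads under normoxia and 5 and 2 under hypoxia. Its log2 fold change was 4.15 for hypoxia in WT (edgeR adjusted p = 0.00032), -0.22 in FIH-KO (adjusted p = 0.88) and -3.33 for genotype under hypoxia (adjusted p = 0.00083). Car9 passed the filter on low counts only through the WT hypoxia libraries, which favoured a difference of that group by construction. The tests of Car9 that involve that group therefore carry no weight. For Car9 the difference of the FIH-KO effect between hypoxia and normoxia was -4.36 on the log2 scale and missed the threshold (edgeR, adjusted p = 0.29).

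The cells carried mesenchymal markers and only part of an epithelial programme. Of 6 epithelial markers, Epcam and Cldn4 had 0 reads in every library and Cdh1 had at most 1, while Krt8 averaged 205 CPM as the most abundant of the list. The summed epithelial list stood at 326 and 352 CPM in WT normoxia, 283 and 226 in WT hypoxia, 538 and 436 in FIH-KO normoxia and 447 and 334 in FIH-KO hypoxia. The 4 mesenchymal markers, led by Vim at a mean of 4354 CPM, summed to 4395 and 5151, 5990 and 5541, 8249 and 9043, and 11025 and 9179 CPM in the same order of groups. Both sums differed between genotypes and, in WT, between oxygen levels, the mesenchymal sum in FIH-KO as well, and their part in the results on the IGF axis was not tested. The mesenchymal sum was higher under hypoxia through Fn1, with means of 1027 (normoxia) and 2316 CPM (hypoxia) in WT and 3292 and 4976 in FIH-KO. The means of Vim were lower under hypoxia (3678 and 3401 in WT, 5266 and 5070 in FIH-KO). Those of S100a4 were lower as well (44.7 and 22.9, 60.5 and 27.6). The epithelial sum was higher in FIH-KO through Krt8 (151 and 150 CPM in WT normoxia, 332 and 277 in FIH-KO normoxia), while Krt18 stood at 174 and 201, and 205 and 158. Of the lung epithelial markers, Nkx2-1 and Sftpc had 0 reads, and the list, led by Hopx, summed to between 7.33 and 10.6 CPM.

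Fibroblasts, endothelium and leukocytes are sources of binding proteins in tissue, and their markers were sparse here. The fibroblast list, led by Pdgfra at a mean of 18.1 CPM, summed to 31 and 29.4 CPM in WT normoxia, 17 and 24.8 in WT hypoxia, 22.6 and 26 in FIH-KO normoxia and 9.31 and 19.3 in FIH-KO hypoxia. Col1a1 had between 3 and 26 reads. The endothelial list, led by Cdh5, summed to 0.321 and 0.296, 2.41 and 1.77, 0.238 and 0.28, and 0.5 and 0.325 CPM in the same order. The leukocyte list, led by Cd68 at a mean of 4.61 CPM, summed to between 2.83 and 7.31 CPM, with Adgre1 and Cd3e at 0 reads and Ptprc at no more than 3.

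Levels were compared between members as TPM, which divides the reads of a gene by its exon length before scaling to a common total. Igfbp4, which encodes a binding protein that mostly inhibits IGF action, was the most abundant member in every group, at 610 ± 73.5 TPM in WT normoxia, 494 ± 0.04 in WT hypoxia, 623 ± 53 in FIH-KO normoxia and 462 ± 14.3 in FIH-KO hypoxia (SD, n = 2). Igfbp6, whose product prefers IGF2 over IGF1, came next among the members at 75.6 ± 0.394, 65.2 ± 9.83, 191 ± 26.5 and 132 ± 54.6 TPM. Their library values did not overlap in any group. Below them, Igf1r, Insr, Irs1 and Irs2 lay between 21.6 and 62.7 TPM in single libraries.

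The order among receptors and substrates differed between genotypes. In WT normoxia it ran Igf1r (33.8 ± 4.1 TPM), Irs2 (33.8 ± 5.28), Insr (26.9 ± 1.32) and Irs1 (25.1 ± 0.757), with the libraries of Igf1r and Irs2 overlapping. In WT hypoxia Igf1r (38.6 ± 4.07) overlapped Insr (33.4 ± 10.8), which overlapped Irs2 (33.1 ± 0.709), with Irs1 at 22.6 ± 1.34. In FIH-KO normoxia Irs2 led at 60.5 ± 3.13, followed by Igf1r (40.3 ± 4.35), Irs1 (35.1 ± 1.14) and Insr (26.6 ± 0.169), with no overlap between neighbours. In FIH-KO hypoxia Irs2 (49 ± 3.63) stayed first, while Igf1r (36.5 ± 4.36), Irs1 (32 ± 8.91) and Insr (27.6 ± 0.161) overlapped in turn. The order depends on the length used: with the longest transcript in place of merged exons, Igf1r came before Irs2 in all 4 groups.

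**Figure D1:**
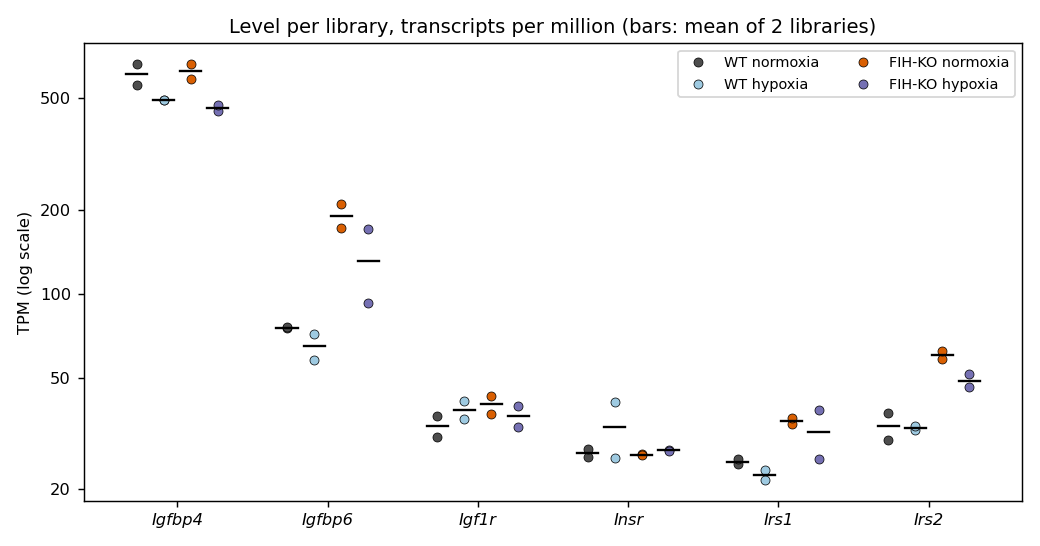
Level of the 6 members with more than a few reads in each library, in TPM on a log axis, with points for single libraries and bars for the mean of 2 libraries. Igfbp6 and Irs2 lie higher in both FIH-KO groups than in both WT groups, while Igfbp4 is the highest member throughout.

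The first question was what loss of FIH did to each member. Under normoxia 4 of the 7 tested members passed the threshold of 0.05 on the adjusted p, 3 higher and 1 lower in FIH-KO, where 28.2% of all tested genes passed (3933 of 13933). Under hypoxia 4 of 7 passed, again 3 higher and 1 lower, where 28% of tested genes passed (3896 of 13933). Igfbp6, Irs1 and Irs2 were higher and Igfbp7 lower in both conditions. Igfbp7 passed the filter on low counts only through the WT hypoxia libraries, which favoured a difference under hypoxia by construction, and without it 3 of 6 passed in each condition. The median log2 fold change of the 7 was 0.23 under normoxia and -0.03 under hypoxia, against 0.00 and -0.03 over all tested genes. Without Igfbp7 the medians were 0.35 and 0.26.

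Igfbp6 (ENSMUSG00000023046.7, chr15:102052697-102057953, plus strand, GRCm39) rose the most. Its level was 21.8 and 21.8 CPM in WT normoxia and 60.4 and 48.3 in FIH-KO normoxia. Under hypoxia it was 20.7 and 15.9 CPM in WT and 50.3 and 26.4 in FIH-KO. All 4 FIH-KO libraries lay above all 4 WT libraries, although the second FIH-KO hypoxia library was close to the WT range. The log2 fold change was 1.32 under normoxia (95% interval 0.78 to 1.86, edgeR adjusted p = 0.0023) and 1.06 under hypoxia (0.51 to 1.61, adjusted p = 0.0084). Without the second WT hypoxia library the latter was 0.89 and missed the threshold (adjusted p = 0.081), and over all left-out libraries it ran from 0.56 to 1.46.

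Irs2 (ENSMUSG00000038894.8, chr8:11034681-11059499, minus strand), which encodes the docking protein most tied to insulin action in liver and beta cells, also rose in FIH-KO. It stood at 46.5 and 57.5 CPM in WT normoxia and at 89.8 and 94 in FIH-KO normoxia. Under hypoxia the values were 50 and 49 CPM in WT and 81.3 and 70.2 in FIH-KO. The genotypes did not overlap. The log2 fold change was 0.82 under normoxia (0.54 to 1.10, edgeR adjusted p = 0.00075) and 0.61 under hypoxia (0.33 to 0.90, adjusted p = 0.0045), and each call held with every library left out in turn (adjusted p of at most 0.024 and 0.037).

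Irs1 (ENSMUSG00000055980.3, chr1:82210822-82269338, minus strand), the docking protein gene first linked to the insulin receptor, rose by less. It stood at 48.3 and 49.9 CPM in WT normoxia, 67 and 68.3 in FIH-KO normoxia, 42.1 and 43.6 in WT hypoxia and 51.3 and 73.5 in FIH-KO hypoxia. Each FIH-KO library was above every WT library, and the FIH-KO hypoxia pair was spread widely. The log2 fold change was 0.46 under normoxia (0.14 to 0.79, edgeR adjusted p = 0.037) and 0.54 under hypoxia (0.21 to 0.87, adjusted p = 0.019). The normoxia call was lost on leaving out any library of WT normoxia, WT hypoxia or FIH-KO normoxia (log2 0.41 to 0.46, adjusted p 0.057 to 0.22). The hypoxia call was lost without the first WT hypoxia library (0.55, adjusted p = 0.094), the second (0.57, adjusted p = 0.079) or the second FIH-KO hypoxia library (0.27, adjusted p = 0.17), and with only the 4 hypoxia libraries in the fit (0.57, adjusted p = 0.051).

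Igfbp7 (ENSMUSG00000036256.14, chr5:77493130-77555931, minus strand), a binding protein of low IGF affinity known from vessels and stroma, was close to the limit of detection. It had 9 and 5 reads in WT normoxia, 12 and 10 in WT hypoxia, 1 and 0 in FIH-KO normoxia and 0 and 0 in FIH-KO hypoxia. Under normoxia the ratio of WT to FIH-KO was 15 from 14 reads against 1, with an exact 95% interval of 2.28 to 632 that covers counting error only. Under hypoxia WT was at least 7.08-fold higher, from 22 reads against a floor of 3 over the group. Under hypoxia the filter itself favoured a difference, so the test there carries no weight. The normoxia call had edgeR adjusted p = 0.024, DESeq2 gave no adjusted p for it in the comparisons of groups, and the normoxia call was lost without the first WT library (adjusted p = 0.18) or without the first or second FIH-KO library (adjusted p = 0.067 and 0.14). Endothelial markers summed to 0.321 and 0.296 CPM in WT normoxia and 0.238 and 0.28 in FIH-KO normoxia, but to 2.41 and 1.77 in WT hypoxia and 0.5 and 0.325 in FIH-KO hypoxia, and their part in the Igfbp7 result was not tested. Exons of Igfbp7 share 747 bases with Polr2b on the opposite strand, the library kit keeps strand, and the strand setting of the counting is not given in the sources used here. Polr2b had between 2071 and 3537 reads in each library. Its means were 216 CPM in WT normoxia, 146 in WT hypoxia, 159 in FIH-KO normoxia and 142 in FIH-KO hypoxia. The part of Polr2b in the Igfbp7 reads was not tested.

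Igfbp4 and the receptors did not pass the threshold for genotype. Igfbp4 (ENSMUSG00000017493.13, chr11:98932064-98945218, plus strand) differed by 0.01 on the log2 scale under normoxia (-0.24 to 0.27) and by -0.05 under hypoxia (-0.31 to 0.20). Igf1r (ENSMUSG00000005533.11, chr7:67601518-67883416, plus strand) had 128 and 151 CPM in WT normoxia, 154 and 174 in FIH-KO normoxia, 147 and 162 in WT hypoxia and 141 and 161 in FIH-KO hypoxia. Its log2 fold changes were 0.23 (-0.04 to 0.50) under normoxia and -0.03 (-0.30 to 0.24) under hypoxia. Insr (ENSMUSG00000005534.11, chr8:3172061-3329647, minus strand) ran from 74.1 to 81.8 CPM in 7 libraries and stood at 112 in the second WT hypoxia library. Its log2 fold changes were -0.03 (-0.38 to 0.31) and -0.22 (-0.57 to 0.13), and without the first WT hypoxia library the latter was -0.46 (edgeR adjusted p = 0.042), while without the second it was 0.11.

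**Figure D2:**
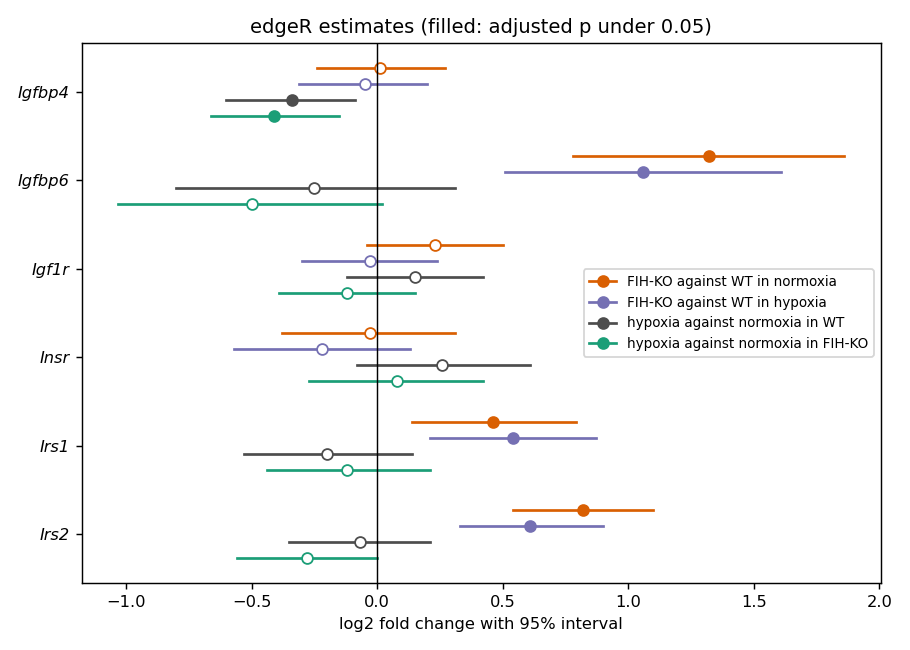
Log2 fold changes of 6 members in the 4 comparisons, with 95% intervals from the edgeR fit and filled points where the adjusted p was under 0.05. Igfbp7 is left out because its groups hold 0 to 22 reads, and filled points for genotype are those of Igfbp6, Irs1 and Irs2.

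The next question was how the members responded to 1% O2. In WT cells 1 of 7 tested members passed, where 32.4% of all tested genes did (4509 of 13933), and in FIH-KO cells 1 of 7 passed, where 16.8% did (2345 of 13933). The gene was Igfbp4 in both. It fell from 518 and 609 CPM to 455 and 433 in WT and from 542 and 595 CPM to 428 and 429 in FIH-KO, with no overlap in either genotype. The log2 fold change was -0.34 in WT (-0.60 to -0.09, edgeR adjusted p = 0.041) and -0.41 in FIH-KO (-0.66 to -0.15, adjusted p = 0.033). Both calls sat near the threshold. In WT it was lost without the second normoxia library (-0.26, adjusted p = 0.27), the first hypoxia library (-0.42, adjusted p = 0.087) or the second (-0.31, adjusted p = 0.19). In FIH-KO it was lost on leaving out any of the 8 libraries (-0.46 to -0.32, adjusted p 0.052 to 0.18) and with only the 4 FIH-KO libraries in the fit (-0.38, adjusted p = 0.13).

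The other members did not pass for hypoxia. Igfbp6 differed by -0.25 in WT (-0.80 to 0.31) and by -0.50 in FIH-KO (-1.03 to 0.02), where it was called without the first FIH-KO hypoxia library (-1.02, edgeR adjusted p = 0.0061) and without the filter on low counts (-0.50, adjusted p = 0.022), but was -0.12 without the second FIH-KO hypoxia library (adjusted p = 0.72). Irs2 differed by -0.07 in WT (-0.35 to 0.21) and by -0.28 in FIH-KO (-0.56 to 0.00). Irs1 differed by -0.20 in WT (-0.53 to 0.14) and by -0.12 in FIH-KO (-0.44 to 0.21). Igf1r differed by 0.15 in WT (-0.12 to 0.42) and by -0.12 in FIH-KO (-0.39 to 0.15), and Insr by 0.26 (-0.08 to 0.61) and 0.08 (-0.27 to 0.42). In WT the value for Insr rests on the second hypoxia library: it was -0.07 without it and 0.50 without the first (edgeR adjusted p = 0.027). Igfbp7 had 14 reads in WT normoxia and 22 in WT hypoxia. The median of the 7 was -0.07 in WT and -0.28 in FIH-KO (-0.14 and -0.20 without Igfbp7), against 0.00 and -0.03 over all tested genes.

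Whether the FIH-KO effect differed between oxygen levels was tested directly. With edgeR 0 of 7 members passed, where 0% of all tested genes did (0 of 13933), and 0 members had an unadjusted p under 0.05, against 925 genes. DESeq2 called 37 genes for this difference and 0 members. The interval for Igfbp6 ran from -1.02 to 0.51 and that for Irs2 from -0.61 to 0.19 on the log2 scale, which leaves room for sizeable differences in either gene. The comparisons of genotype and of oxygen share libraries, so their values are given side by side only.

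The silent binding protein genes set a floor. Igfbp2 (chr1:72863606-72891634, plus strand), Igfbp5 (chr1:72897091-72914043, minus strand) and Igfbp3 (chr11:7156086-7164179, minus strand) had 0 reads in 8 of 8 libraries, which allows at most 0.168 to 0.205 CPM per library at 3 counts. Igfbp2 and Igfbp5 are neighbours on chromosome 1, and Igfbp3 lies beside Igfbp1, which also had 0 reads. Of the ligand genes, Ins1, Ins2 and Igf2 had 0 reads, and Igf1 had 5 reads in a WT normoxia library and at most 1 in the others. The cells therefore carried transcripts of receptors and substrates with next to none of the ligands, and the cells were grown in medium with bovine serum.

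Other genes of the axis were followed through 10 lists holding 59 genes, of which 9 had 0 reads and 45 were tested. Under normoxia 5 were higher and 6 lower in FIH-KO, and under hypoxia 5 were higher and 7 lower, so 24.4% and 26.7% passed, near the 28.2% and 28% of all genes. Their median log2 fold changes were 0.09 and -0.02. For hypoxia 12 were higher and 8 lower in WT and 10 higher and 6 lower in FIH-KO, so 44.4% and 35.6% passed, against 32.4% and 16.8% of all genes, with medians of -0.02 and -0.05. For the difference 0 of 45 passed with edgeR and 0 with DESeq2.

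Closest to the binding proteins were the stanniocalcins Stc1 and Stc2, inhibitors of a protease that cleaves IGFBP4, whose own gene Pappa had 0 reads. Stc1 stood at 26.4 and 62.9 CPM in WT normoxia, 64.7 and 73.3 in WT hypoxia, 1.07 and 2.69 in FIH-KO normoxia and 24.6 and 18 in FIH-KO hypoxia. It fell in FIH-KO, with log2 fold changes of -4.55 under normoxia and -1.69 under hypoxia (edgeR adjusted p = 2.9e-05 and 0.0031). The normoxia value ran from -5.40 to -3.82 with a library left out. With hypoxia Stc1 rose by 3.49 in FIH-KO (edgeR adjusted p = 0.00036) and differed by 0.63 in WT, where it did not pass (adjusted p = 0.16). For Stc1 the difference of the FIH-KO effect between hypoxia and normoxia was 2.86 and missed the threshold (edgeR adjusted p = 0.19). Stc2, with 9 and 14 reads in WT normoxia and 5 and 0 in FIH-KO normoxia, rose with hypoxia by 3.88 in WT and 3.83 in FIH-KO (adjusted p = 0.00012 and 0.0031), the latter 2.85 to 8.16 with a library left out. Stc2 passed the filter on low counts mainly through the hypoxia libraries, which favoured a rise with hypoxia by construction. It was lower in FIH-KO under hypoxia (-2.28, adjusted p = 0.0016, held with every library left out) and did not pass under normoxia (-2.23, adjusted p = 0.06). Of the other receptors, Igf2r was called, chosen here after its values were seen: 0.78 in FIH-KO under hypoxia (adjusted p = 0.0044, and 0.64 with 0.054 without the first WT hypoxia library) and -0.77 for hypoxia in WT (adjusted p = 0.0042, and -0.57 with 0.057 without the second WT normoxia library).

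Of 7 inhibitors that act at the receptors or further down the pathway, 5 passed for hypoxia in each genotype (32.4% of all genes in WT and 16.8% in FIH-KO). For genotype 2 passed under normoxia and 3 under hypoxia (28.2% and 28%). Socs3 rose in FIH-KO by 0.92 and 0.68 (edgeR adjusted p = 0.0012 and 0.0083), the latter 0.56 and not called without the second WT hypoxia library (adjusted p = 0.078). Grb14 had 47 and 48 reads in WT normoxia, 60 and 35 in WT hypoxia, 10 and 7 in FIH-KO normoxia and 10 and 0 in FIH-KO hypoxia, and it fell by 2.56 and 3.16 (adjusted p = 0.0076 and 0.004), the former -2.31 without the second FIH-KO normoxia library (adjusted p = 0.053). Grb14 passed the filter on low counts through the WT libraries, which favoured a difference by construction, so its genotype tests carry no weight. Under hypoxia the size for Grb14 is not fixed by these reads, with -8.55 without the first FIH-KO hypoxia library and -2.19 without the second. With hypoxia in WT and FIH-KO, Trib3 rose by 3.77 and 3.27, Socs2 by 2.87 and 1.68 and Grb10 by 0.60 and 0.58, while Ptpn1 fell by 0.66 and 0.49 and Socs3 by 0.50 and 0.74. Grb10 was lost without the second WT normoxia or first WT hypoxia library (0.47 and 0.46) and without the second FIH-KO normoxia or first FIH-KO hypoxia library (0.54 and 0.44). Socs2 in FIH-KO was lost without either FIH-KO normoxia library (1.70 and 1.69) or the first FIH-KO hypoxia library (1.08). Socs3 was lost in WT without either WT normoxia library (-0.56 and -0.52) or the second WT hypoxia library (-0.38), and in FIH-KO without the first FIH-KO normoxia library (-0.49). Ptpn1 was higher in FIH-KO under hypoxia (0.36, adjusted p = 0.021), lost without either WT hypoxia library (0.39 and 0.37) or the second FIH-KO hypoxia library (0.34).

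Adaptors other than Irs1 and Irs2 passed for hypoxia in 4 of 7 cases in each genotype (32.4% of all genes in WT and 16.8% in FIH-KO), and for genotype in 0 and 1 of 7 under normoxia and hypoxia (28.2% and 28%). With hypoxia in WT and FIH-KO, Sos1 rose by 0.92 and 0.50, Sos2 by 0.71 and 0.40 and Sh2b2 by 1.69 and 1.29, while Shc1 fell by 0.50 and 0.48. The call for genotype was Sos1 under hypoxia (-0.32, edgeR adjusted p = 0.044), lost with any of the 8 libraries left out (-0.35 to -0.24). For hypoxia, Sos1 in FIH-KO was lost without the first FIH-KO normoxia library (0.45), and Sos2 in FIH-KO without the second WT hypoxia library or any FIH-KO library (0.37 to 0.45). Sh2b2 was lost without the second WT normoxia library in WT (1.51) and without the first library of FIH-KO normoxia or hypoxia in FIH-KO (0.94 and 0.69). Shc1 was lost without the second library of WT normoxia or hypoxia in WT (-0.51 and -0.41), and in FIH-KO without either WT normoxia library (-0.46 each) or the first library of FIH-KO normoxia or hypoxia (-0.30 and -0.35).

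In the PI3K list, Pik3r3, a regulatory subunit that binds IRS proteins, stood at 9.32 and 6.58 CPM in WT normoxia, 5.55 and 4.71 in WT hypoxia, 36.8 and 19.1 in FIH-KO normoxia and 14.9 and 16.9 in FIH-KO hypoxia. It rose by 1.82 and 1.63 (edgeR adjusted p = 0.0007 and 0.0019), and both calls held with every library left out in turn. Pik3cb fell by 0.66 and 0.60, lost under normoxia without the first WT or first FIH-KO normoxia library (-0.64 and -0.59) and under hypoxia without the second WT or first FIH-KO hypoxia library (-0.33 and -0.46). Pdpk1 rose with hypoxia by 0.37 in WT and 0.36 in FIH-KO, lost in WT without any WT library (0.31 to 0.36) and in FIH-KO without either WT normoxia library, the second WT hypoxia, first FIH-KO normoxia or second FIH-KO hypoxia library (0.31 to 0.38).

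Of 12 AKT and mTOR genes, 1 (8.33%) passed for genotype in each condition, against 28.2% and 28% of all genes. It was Tsc1, which rose by 0.42 and 0.55, lost under normoxia without either WT normoxia library (0.40 and 0.39) or the first FIH-KO normoxia library (0.29). With hypoxia in WT and FIH-KO, Rictor rose by 0.61 and 0.42 and Deptor fell by 0.86 and 0.71. In FIH-KO Rictor was lost without the first FIH-KO normoxia or second FIH-KO hypoxia library (0.39 and 0.38), and Deptor without the first FIH-KO normoxia library (-0.41). Igf2bp1, which encodes a protein that binds IGF2 mRNA, fell in FIH-KO by 0.65 and 0.97, lost under normoxia without the first WT or first FIH-KO normoxia library (-0.64 and -0.49). Igf2bp3 fell with hypoxia by 0.60 in WT and 0.54 in FIH-KO. It was lost in WT without the second WT normoxia or first WT hypoxia library (-0.61 and -0.52), and in FIH-KO without either WT normoxia library, the first FIH-KO normoxia or either FIH-KO hypoxia library (-0.55 to -0.44). With the model fitted to the 4 compared libraries alone, calls were also lost for genotype under hypoxia in Sos1 (-0.29), Pik3cb (-0.57) and Ptpn1 (0.39), and for hypoxia in FIH-KO in Ptpn1 (-0.46), Shc1 (-0.45), Sos2 (0.43), Sh2b2 (1.32), Pdpk1 (0.39), Rictor (0.44) and Igf2bp3 (-0.51).

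For each abundant member, the other gene with the nearest course over the 8 libraries was sought among 10570 genes, as the smallest root mean square difference of centred log2 CPM. Igfbp6 was closest to Ftl1 (0.16, against 0.66 for its own spread about its mean), which stood at 1138 and 1250 CPM in WT normoxia and 2647 and 2171 in FIH-KO normoxia. Irs2 was closest to Bcl9l (0.07 against 0.38), Irs1 to Nrbp1 (0.08 against 0.29), and Igfbp4 to Fem1a (0.06 against 0.20). Igf1r was closest to Zbed3 (0.07 against 0.13) and Insr to S100pbp (0.07 against 0.18), both members with little spread of their own.

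Genome position was examined after the values of the members were seen. The 20 tested genes nearest to Igfbp6 on chromosome 15 had a median log2 fold change of 0.17 under normoxia and 0.16 under hypoxia, against 0.05 and 0.09 for the 552 tested genes of the chromosome. Krt8, which lies on the same chromosome at chr15:101905133-101912917, rose by 1.02 and 1.00 in FIH-KO (edgeR adjusted p = 0.00066 and 0.00083), while its neighbour Krt18 differed by -0.05 and 0.12. The 20 nearest genes of Igfbp7 on chromosome 5 had medians of -0.21 and -0.27, against -0.10 and -0.12 for the chromosome. Those of Irs2 on chromosome 8 had medians of -0.01 and -0.12, and those of Irs1 on chromosome 1 had 0.00 and -0.01. For members without a call for genotype the neighbour medians were 0.25 and 0.20 for Igf1r (0.14 and 0.05 for its chromosome), 0.19 and -0.02 for Insr (-0.05 and -0.12) and 0.03 and 0.06 for Igfbp4 (-0.05 and -0.08).

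Promoter sequence was searched for all members. RefSeq windows of 250 bases before the start (table build GRCm38.p6, placed on GRCm39 by exact match) were found for 9 of the 10 members, Igfbp2 with 2 windows, and not for Insr. ACGTG and GCGTG, the core of HIF response elements, were searched on both strands, as was TGTTTAC, a FOXO core. Of 32841 windows, 16.6% held ACGTG, 28.2% GCGTG, 38.6% either and 3.17% TGTTTAC. Among the 9 members 6 held ACGTG or GCGTG in a window, and 0 held TGTTTAC. Irs1 and Irs2 each held the palindrome CACGTG, which reads as ACGTG on both strands and was picked out after the windows were seen. It occurred in 6.02% of windows. Igfbp2, silent in these cells, held it too. The sites are shown as 30 bases on the gene's strand, with CACGTG in capitals, at chr1:82269258-82269287 (minus strand) for Irs1, chr8:11058956-11058985 (minus strand) for Irs2 and chr1:72863485-72863514 (plus strand) for Igfbp2. In GENCODE M39 the Irs1 and Irs2 sites lie in untranslated exon sequence of their genes and the Igfbp2 site lies upstream of the gene.
Irs1: cagaggctccgtCACGTGttttgctcctct
Irs2: gtaacgcagagtCACGTGttgttttgctct
Igfbp2: cgtgtgcacaagCACGTGccctcacgcaag

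The window of Igfbp6, the member with the largest rise, held none of these motifs. It is shown in full for comparison with the sites of Irs1 and Irs2, from chr15:102052371-102052620 (plus strand), with 49.6% G or C and 7 CG pairs, against 72.4% and 28 for Irs1 and 72.8% and 34 for Irs2. A match or its absence describes these letters only.
Igfbp6: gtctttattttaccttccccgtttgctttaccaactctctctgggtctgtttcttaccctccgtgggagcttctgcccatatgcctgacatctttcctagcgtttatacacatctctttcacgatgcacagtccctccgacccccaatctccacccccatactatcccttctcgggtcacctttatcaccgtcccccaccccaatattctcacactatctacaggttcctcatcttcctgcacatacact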

How the data were processed

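Stranded poly(A) RNA libraries of LLC cells were sequenced by the authors, aligned to GRCm39 with STAR and counted per gene with HTSeq, and the deposited values are raw counts; the submitters' processing notes also name DESeq2, GRCm38 and mm10. The annotation release, strand setting and treatment of multi-mapping reads are not given in the sources used here. The members and lists were chosen with earlier results of these data known.

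Counts of all 53700 genes entered edgeR 4.0.16 (R 4.3.3): filterByExpr (minimum count 10), TMM scaling, 4 group means in 1 quasi-likelihood model of 8 libraries, and Benjamini-Hochberg adjustment over 13933 genes, with a threshold of 0.05. DESeq2 1.42.0, other scalings, filters, a replicate block and left-out libraries were alternatives. The steps were tested on simulated data. TPM used merged exon lengths of GENCODE M39 (97.97% of identifiers matched). Named pathway genes passed for genotype in both oxygen levels or for hypoxia in both genotypes; others named were chosen after their values were seen. Intervals of log2 fold changes come from the edgeR fit and include the spread between libraries, while the read ratio of Igfbp7 and the floors cover counting error only. Protein sequences were not analysed here.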

Additional observations from a re-analysis of the deposited data

How the results depend on the processing

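Over other scalings, filters, tests and sample sets, 748 single-gene values kept their direction and side of the threshold, 21 lost the call, 1 gained it and 3 changed sign: Igfbp4 for genotype under normoxia, 0.00 with upper-quartile scaling and 0.00 with at least 10 counts in every library, and Igf1r for genotype under hypoxia, 0.01 with no filter beyond 1 read. The cause was not tested. Genes outside the members entered this tally only where the main fit had called them, which favoured losses over gains by construction. At least 10 counts in every library dropped Igfbp7, and DESeq2 gave it no adjusted p in the 4 comparisons of groups. With only the 4 normoxia libraries in the fit, 3 members were called for genotype in place of 4, and Igfbp7 was not among them.

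With each library left out, 751 values kept direction and call, 133 lost the call, 3 gained it and 25 changed sign. An arm left with 1 library is assumed to vary like the others, and fewer samples cost calls by construction. The same choice of genes applied here and also favoured losses. Ranges of values that changed sign were, for genotype under normoxia, Igfbp4 -0.13 to 0.11; for genotype under hypoxia, Igfbp4 -0.08 to 0.02, Igf1r -0.12 to 0.10 and Insr -0.46 to 0.11. For hypoxia in WT they were Igf1r -0.01 to 0.23, Insr -0.07 to 0.50 and Irs2 -0.26 to 0.05, and in FIH-KO Igfbp7 -3.11 to 0.00 (fitted from 1 read) and Irs1 -0.40 to 0.14. For the difference they were Igfbp4 -0.13 to 0.11, Igfbp6 -0.73 to 0.14, Insr -0.40 to 0.14 and Irs1 -0.20 to 0.38.

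Genes called with a library left out ran from 1735 to 4672 and 2170 to 3887 for genotype under normoxia and hypoxia, 2124 to 5270 and 1097 to 2604 for hypoxia in WT and FIH-KO, and 0 to 39 for the difference. Members called ran from 2 to 4, 2 to 4, 0 to 1, 0 to 1 and 0 to 0, and pathway genes from 5 to 13, 7 to 13, 10 to 22, 5 to 15 and 0 to 1. With only the 4 FIH-KO libraries, hypoxia called 1289 genes, 0 members and 8 pathway genes. With no filter it called 2 members, and the difference called 143 genes and 1 pathway gene, while DESeq2 called 37 genes.

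With the replicate block, 4080, 4039, 4593, 2479 and 5 genes were called in the same order of comparisons, and the calls of members did not change (4, 4, 1, 1 and 0). Deviations of libraries with the same number had correlations from -0.0104 to 0.193 over 6 pairs of groups, over 0.1 in 2 of them. The labels name no shared batch or day, so the number was not taken to pair the libraries, and a pairing is not excluded.

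With the longest transcript in place of merged exons, mean TPM over all libraries was 450 for Igfbp4, 41.9 for Igf1r, 20.5 for Irs1 and 31.5 for Irs2, against 547, 37.3, 28.7 and 44.1, by construction of the lengths. Igfbp6 (93.6 against 116), Insr (30 against 28.6) and Igfbp7 (0.186 against 0.255) moved by less than the spread over all 8 libraries. That spread includes the differences between groups. Within a group the move could exceed the spread. Igfbp6 in WT normoxia went from 75.6 ± 0.394 to 60.8 ± 0.109 TPM, and Insr in FIH-KO hypoxia from 27.6 ± 0.161 to 29.1 ± 0.102. At this depth Igfbp7 had at most 12 reads in a library, and the silent members cannot be placed below the floor of 3 counts.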
